A study of Schizosaccharomyces pombe with 8 samples.

Results

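The difference between the H2O2 response of a glutathione reductase deletion strain and that of wild type was examined in the fission yeast Schizosaccharomyces pombe. For each gene the response of a strain is its mean log2 level after H2O2 minus its mean without H2O2. The difference of responses is the response of the deletion strain minus that of wild type, so a negative value means a smaller rise, or a larger fall, in the deletion strain. All 8 libraries of the series enter it, in 4 groups of 2: the pgr1 deletion strain after 1 mM H2O2 for 30 min, the same strain untreated, wild type strain 972 (WT) after the same dose and time, and WT untreated. Growth was in YE5S, a rich medium made with yeast extract, with cells at 30 °C and an OD600 of 0.5, and poly(A) RNA was sequenced from stranded libraries. Of the 5165 genes of the deposited table, 5028 reached 10 normalized counts in at least 2 libraries and were tested. The limit fell between mde7, tested, whose second highest library just reached it, and mug95, not tested, whose second highest library held 9.22.

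Glutathione reductase, encoded by pgr1, uses NADPH to turn oxidized glutathione back into its reduced form, the main low-molecular-weight thiol of the cell. H2O2 acts on fission yeast transcription by several routes. The Sty1 kinase and its transcription factor Atf1 switch on the core stress genes, the factor Pap1 is oxidized by way of the peroxiredoxin Tpx1 and switches on antioxidant and drug resistance genes, and Hsf1 drives chaperones, while genes for ribosome assembly are turned down.

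The pgr1 gene itself had 92.9 and 105 normalized counts in the deletion strain after H2O2 and 159 and 91.4 untreated, against 7201 and 6792 in WT after H2O2 and 4939 and 4805 untreated. The 4 libraries labelled as the deletion were all far below the 4 WT libraries. The deletion is represented by 1 strain. Whether paired libraries are separate cultures is not in the labels, so the p-values measure the spread between these libraries, which may be technical. Counts recovered from the table summed to between 12026222 and 14125543 reads per library. The median absolute difference between the 2 libraries of a group was 0.07 to 0.12 on the log2 scale. The 2 WT libraries of each group stood apart from each other on iron uptake genes, as described with those genes. In bulk RNA, fewer cells of a kind and less RNA per cell cannot be told apart.

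The strains' responses differed for 1372 genes, 27.3% of those tested (limma with Benjamini-Hochberg adjustment, adjusted p below 0.05). The difference was positive for 605 genes (12.0%) and negative for 767 (15.3%). It was at least 2-fold for 339 genes (6.74%), 117 of them higher (2.33%) and 222 lower (4.42%). Without replicate 2 of the treated deletion strain, 315 genes were higher and 461 lower, and without its replicate 1, 489 were lower. The median difference over all genes was -0.01 and its median standard error 0.13 (log2). Where the responses differed by the test, genes that responded strongly in WT mostly responded less in the deletion strain. Of 691 genes that rose at least 2-fold in WT, the difference was lower for 447 and higher for 18, and of 595 that fell at least 2-fold in WT it was higher for 253 and lower for 8. These counts share the WT libraries with the difference, from which the WT response is subtracted. A lean in this direction is therefore partly built in, and the counts are given as a description. The 2-fold limit lay just outside rpa49 (0.999) and just inside cdh1 (1.003) on the positive side, and on the negative side the last gene inside was bsu1 (-1.002).

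The 339 genes were sorted by the ratio of the smaller to the larger of the 2 responses. A response was called damped where the deletion strain kept at least 0.25 of the WT log2 response in the same direction, and lost where it kept less than that in either direction. It was called enlarged where the deletion strain's response was the larger and WT had at least 0.25 of it, gained where WT had less, and reversed where the strains moved in opposite directions with a ratio of -0.25 or below. There were 183 damped, 57 lost, 17 enlarged, 38 gained and 44 reversed responses. Because the classes use the same values as the difference, their counts and medians are descriptions. A difference of responses can arise from unequal untreated levels or from unequal treated levels. It was set mainly at the untreated level, with at least 0.75 of it there, for 117 genes, mainly at the treated level for 122, and at both for 100.

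**Figure D1:**
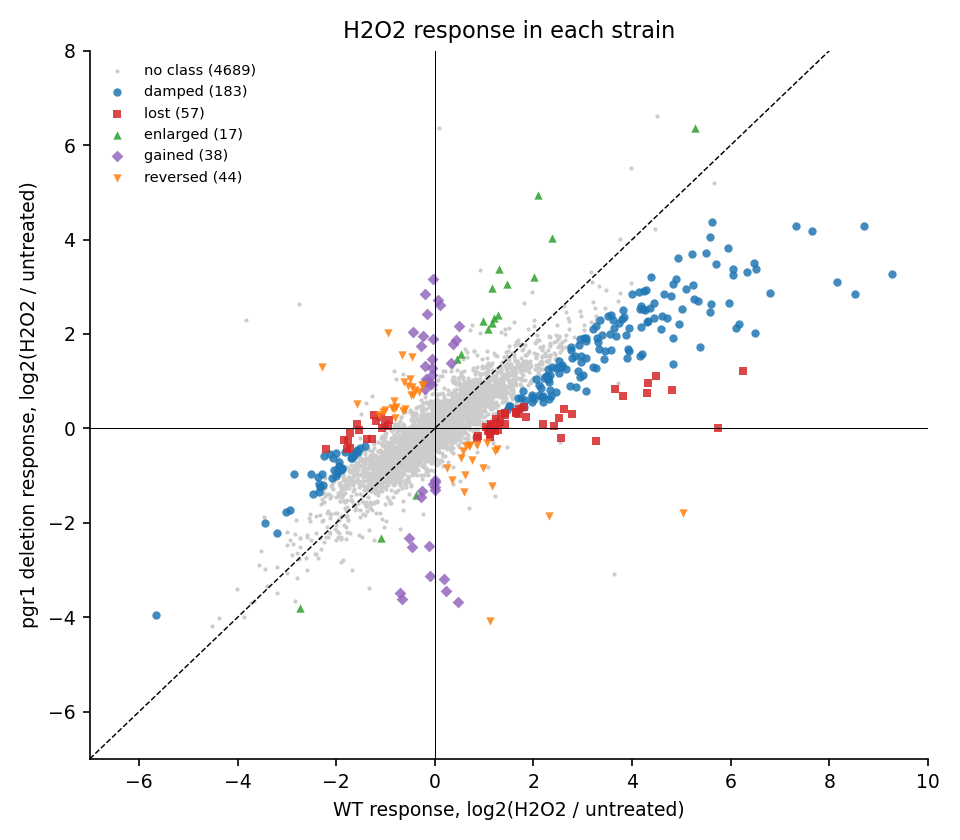
H2O2 response of the pgr1 deletion strain (y axis) against that of WT (x axis), each as log2 of H2O2 over untreated, with 1 point per gene for the 5028 genes tested and the dashed line marking equal responses. The 183 damped genes lie between the dashed line and the horizontal axis, the 57 lost genes along that axis, the 38 gained genes along the vertical axis and the 44 reversed genes on the 2 sides where the strains' responses have opposite signs.

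Damped rises formed the largest class, with 144 genes. Their median response was 1.91 in the deletion strain and 3.56 in WT (log2), but their median level after H2O2 differed between the strains by -0.18. The median untreated strain difference was 1.59, and the untreated level was higher in the deletion strain for 129 of the 144, against 22.8% of all genes tested. After H2O2 the level was higher in the deletion strain for 38, lower for 55 (over all genes 26.5% and 22.4%) and did not pass the test in either direction for 51. The difference was set at the untreated level for 95 of them, at the treated level for 14 and at both for 35.

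The largest damped rise was that of ddr48, a stress-induced gene named after a DNA damage-responsive gene of budding yeast. It had 73790.2 and 78148 normalized counts in the deletion strain after H2O2 and 6879 and 8990.4 untreated, against 85148 and 103328 in WT after H2O2 and 131 and 170.5 untreated. The untreated deletion libraries were far above the untreated WT libraries, and the treated libraries of the strains lay close together. The rise was 9.66-fold in the deletion strain and 623-fold in WT, a difference of -6.01 ± 0.22 (log2, SE, n = 2 libraries per group, limma adjusted p = 1.83e-06). The treated levels did not differ beyond the test (-0.30 ± 0.16, adjusted p = 0.145). lsd90 rose 7.14-fold in the deletion strain and 369-fold in WT (difference -5.69 ± 0.21). ecl1, a gene that extends chronological lifespan when overexpressed, rose 4.38-fold in the deletion strain and 69.0-fold in WT (-3.98 ± 0.33).

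A smaller ratio was not always a smaller gain in normalized counts. Among the 144 damped rises the gain in normalized counts was smaller in the deletion strain for 108 and larger for 36. srx1, the sulfiredoxin that repairs hyperoxidized Tpx1, had 16191 and 18017 normalized counts in the deletion strain after H2O2 and 2596 and 3389.9 untreated, against 5261 and 6159 in WT after H2O2 and 158 and 194 untreated. Every deletion library, treated or not, was above the untreated WT libraries, and the treated ones were the highest of all. Its rise was 5.76-fold in the deletion strain and 32.3-fold in WT (difference -2.49 ± 0.20, adjusted p = 7.28e-05), while its gain was 14111 normalized counts in the deletion strain and 5534 in WT. ssd2 also gained more in the deletion strain, 20312 normalized counts against 12205 in WT, with a difference of -3.47 ± 0.31 on the log2 scale. tps1, which makes trehalose phosphate, ended level: 38860.0 and 40131 normalized counts in the deletion strain after H2O2, against 36700.5 and 42458 in WT after H2O2, a treated difference of 0.00 ± 0.10. Its untreated level was 3.13-fold higher in the deletion strain, and the difference of responses was -1.65 ± 0.15.

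**Figure D2:**
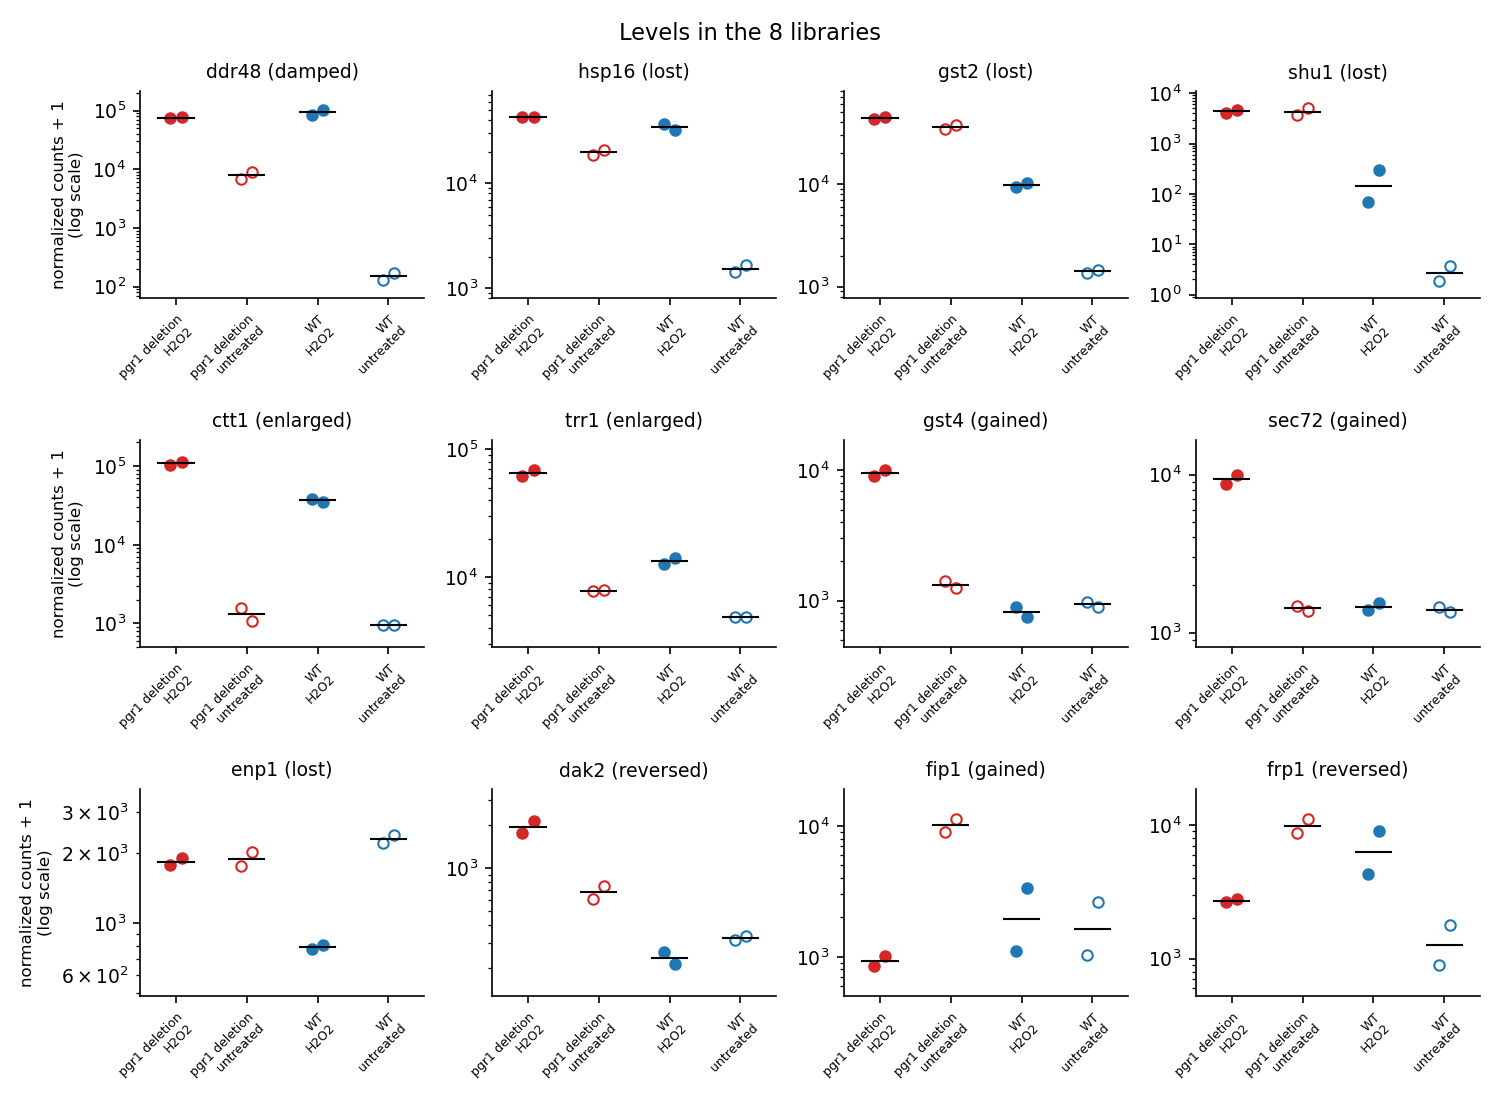
Normalized counts plus 1 on a log axis in each of the 8 libraries for 12 genes, from left to right the pgr1 deletion strain after H2O2 and untreated (red) and WT after H2O2 and untreated (blue), with filled points for H2O2, open points for untreated and a bar at the geometric mean of the 2 libraries. In ddr48 and hsp16 the untreated deletion libraries lie above the untreated WT libraries and the treated levels are close, in gst4 and sec72 the treated deletion libraries are far above the other 6, and in fip1 the untreated deletion libraries are the highest.

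Lost rises numbered 40, with a median response of 0.16 in the deletion strain and 1.65 in WT. The difference was set at the untreated level for 12, at the treated level for 14 and at both for 14. After H2O2 the level was lower in the deletion strain for 27 of the 40 and higher for 8 (over all genes 22.4% and 26.5%). Untreated, it was higher in the deletion strain for 25 and lower for 2 (over all genes 22.8% and 15.8%).

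gst2, a glutathione S-transferase, was already high without H2O2. It had 42842 and 45249 normalized counts in the deletion strain after H2O2 and 34098 and 37793 untreated, against 9401 and 10253 in WT after H2O2 and 1374 and 1465 untreated. All 4 deletion libraries were above all 4 WT libraries. The difference of responses was -2.50 ± 0.12 (adjusted p = 4.70e-06), and the gain in normalized counts was close in both strains, 8099.9 in the deletion strain and 8408 in WT. zym1, a metallothionein that binds zinc and cadmium, followed the same order, with 15128 and 17136 normalized counts in the deletion strain after H2O2 and 7835 and 10599.9 untreated, against 4907 and 6807 in WT after H2O2 and 185 and 226 untreated. No library of one group overlapped another group. Its difference was -3.99 ± 0.26.

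hsp16, a small heat shock protein, was placed in this class although it still rose 2.15-fold in the deletion strain, because its WT rise was 22.5-fold. It had 42859.6 and 42587 normalized counts in the deletion strain after H2O2 and 18774 and 20936 untreated, against 37079.7 and 32096 in WT after H2O2 and 1416 and 1662 untreated. The treated libraries lay close together, with a strain difference of 0.31 ± 0.11 (adjusted p = 0.0418), and the untreated ones were 12.9-fold apart. bit2 had a difference of -3.36 ± 0.55, with an untreated level of 138 and 226 normalized counts in the deletion strain and 3.50 and 8.20 in WT.

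shu1, a cell surface heme transporter made when iron is scarce, had the largest fitted untreated strain difference of all genes tested. It had 4077 and 4600.5 normalized counts in the deletion strain after H2O2 and 3762 and 4963 untreated, against 67.1 and 298 in WT after H2O2 and 0.875 and 2.73 untreated. The deletion libraries did not separate by treatment, with a response of 0.00 ± 0.58. In WT the counts rested on 341 reads after H2O2 over both libraries and 4 reads untreated, a ratio of 105 (95% exact interval 40.7 to 388, counting error only). The fitted difference of -5.75 ± 0.82 (adjusted p = 0.00132) leans on those 4 reads and on the pseudocount of 1.

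**Figure D3:**
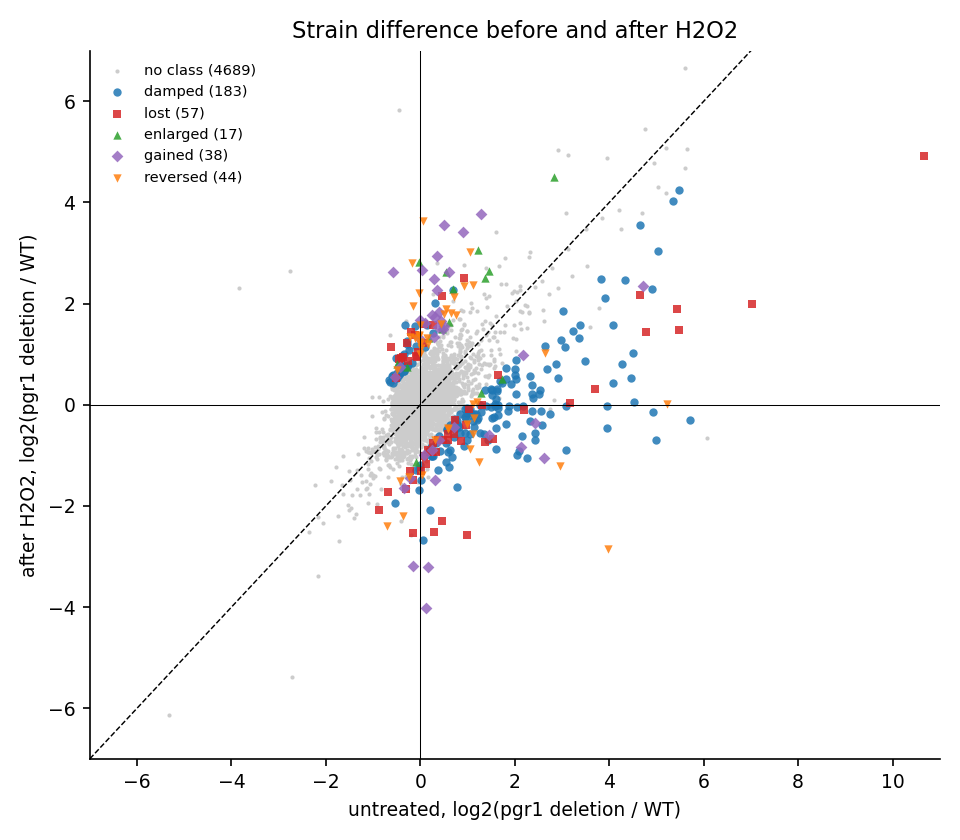
Strain difference after H2O2 (y axis) against strain difference untreated (x axis), each as log2 of pgr1 deletion over WT, with 1 point per gene and the dashed line marking genes whose 2 strain differences are equal. Most damped rises lie to the right of zero, with higher untreated levels in the deletion strain, and spread to both sides of the horizontal axis, 38 of the 144 higher after H2O2 and 55 lower, and the gained and enlarged rises lie above zero near the vertical axis, with the difference seen after H2O2.

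Rises that were enlarged or gained in the deletion strain were mostly set at the treated level. Of 14 enlarged rises 12 were, and of 22 gained rises 20 were. The treated level was higher in the deletion strain for all 14 and all 22 (26.5% of all genes), with medians of 1.97 and 1.75 (log2). Because both classes require a larger rise in the deletion strain, a higher treated level is partly built in. The gained rises had a median response of 1.77 in the deletion strain and -0.07 in WT.

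trr1, the thioredoxin reductase, which draws on NADPH as glutathione reductase does, had 61894 and 69128 normalized counts in the deletion strain after H2O2 and 7807 and 7851 untreated, against 12711 and 13997 in WT after H2O2 and 4834 and 4854 untreated. The treated deletion libraries were far above the other 6. The rise was 8.35-fold in the deletion strain and 2.75-fold in WT, a difference of 1.60 ± 0.12 (adjusted p = 4.35e-05). ctt1, the catalase, which breaks down H2O2 itself, had 102945 and 113163 normalized counts in the deletion strain after H2O2 and 1574 and 1077 untreated, against 38141 and 35219.8 in WT after H2O2 and 953 and 949 untreated. Its untreated level was higher in the deletion strain by a smaller margin, which also passed the test. The treated level of ctt1 was 2.94-fold higher in the deletion strain, a difference of responses of 1.11 ± 0.21 (adjusted p = 0.00560). The difference of ctt1 had the opposite sign to that of most of the core stress genes with which it is usually listed.

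rib4, the lumazine synthase of riboflavin synthesis, rose 10.4-fold in the deletion strain and 2.48-fold in WT (2.07 ± 0.12). yak3, an aldo-keto reductase, rose 7.86-fold in the deletion strain and 2.22-fold in WT (1.82 ± 0.10). hhy1 rose 16.4-fold in the deletion strain and 5.19-fold in WT (1.66 ± 0.37), and lost its call without replicate 2 of the treated deletion strain (adjusted p = 0.0524).

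Among the gained rises, gst4, a putative glutathione S-transferase, had 9054 and 10033 normalized counts in the deletion strain after H2O2 and 1410.5 and 1243 untreated, against 886 and 749 in WT after H2O2 and 981 and 892 untreated. Only the treated deletion libraries stood apart by more than 2-fold. The difference was 3.05 ± 0.15 (adjusted p = 4.70e-06), and the WT response did not pass the test (-0.20 ± 0.10, adjusted p = 0.116). sec72, a guanine nucleotide exchange factor of the Sec7 family, had 8717 and 9992 normalized counts in the deletion strain after H2O2 and 1482 and 1369.7 untreated, against 1397 and 1532 in WT after H2O2 and 1455 and 1342 untreated. The other 6 libraries overlapped one another. Its difference was 2.64 ± 0.13. The largest gained rise was that of alr2, an alanine racemase, at 3.21 ± 0.27, with 746 and 989 normalized counts in the deletion strain after H2O2 and 83.6 and 107 untreated, against 121 and 157 in WT after H2O2 and 149 and 136 untreated. ime4, an RNA methyltransferase family member, had a difference of 2.02 ± 0.17.

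Reversed responses were of 2 kinds. By the sign of the fitted response, 25 genes went up in the deletion strain and down in WT, with medians of 0.71 in the deletion strain and -0.65 in WT, and both responses passed the test for 21. Over all genes tested, 35.7% rose and 32.5% fell in the deletion strain, and 37.7% rose and 34.6% fell in WT. The difference was set at the treated level for 24 of these 25. dak2, a dihydroxyacetone kinase, had 1753 and 2123 normalized counts in the deletion strain after H2O2 and 612 and 744 untreated, against 258 and 215 in WT after H2O2 and 313 and 335 untreated. Each group was separate from the others. Its response was 1.51 ± 0.14 in the deletion strain and -0.46 ± 0.14 in WT, a difference of 1.97 ± 0.20 (adjusted p = 2.01e-04).

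pos5, the mitochondrial kinase that makes NADPH from NADH, had 619.7 and 662 normalized counts in the deletion strain after H2O2 and 522 and 526 untreated, against 271 and 241 in WT after H2O2 and 526 and 607 untreated. The treated WT libraries were the low ones, at less than the other 6, and the difference was 1.43 ± 0.15. gta3 (2.11 ± 0.24) and wtf5 (1.43 ± 0.19) are uncertain, since the exons of gta3 lie mostly opposite another gene and wtf5, a spore killer family member, shares sequence stretches with its relatives. The strand setting of the counting is not given in the sources used here. mrpl7, a mitochondrial ribosomal protein gene, had a difference of 1.18 ± 0.14.

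The other 19 went down in the deletion strain and up in WT, with medians of -0.66 in the deletion strain and 0.75 in WT, and both responses passed the test for 11. ecl2, a relative of ecl1, had 2518 and 2462 normalized counts in the deletion strain after H2O2 and 3354 and 3379 untreated, against 3322 and 4195 in WT after H2O2 and 1752 and 1367 untreated. The untreated deletion level was as high as the lower of the treated WT libraries. The responses were -0.43 ± 0.13 in the deletion strain and 1.27 ± 0.13 in WT (difference -1.70 ± 0.18, adjusted p = 3.23e-04). pof1, an F-box protein of an SCF ubiquitin ligase that acts in sulfur metabolism, had a difference of -1.41 ± 0.20. cta3, a cation-transporting ATPase gene, had a difference of -5.21 ± 0.86 but its WT libraries after H2O2 lay far apart, at 42.8 and 211 normalized counts, and the WT response did not pass the test (adjusted p = 0.126). Its level in the deletion strain was 91.7 and 102 after H2O2 and 1499 and 1836 untreated.

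Genes that fall after H2O2 in WT fell less in the deletion strain in 39 damped and 17 lost cases. The damped falls had a median response of -0.87 in the deletion strain and -2.02 in WT. After H2O2, 38 of the 39 damped falls and all 17 lost falls were higher in the deletion strain, against 26.5% of all genes. Because both classes require a smaller fall in the deletion strain, this is partly built in. By the shares above, 0 of the damped falls were set at the untreated level, 12 at the treated level and 27 at both. For the lost falls these counts were 0, 12 and 5. Untreated, 26 of the 39 damped falls were lower in the deletion strain (median -0.38), against 15.8% of all genes.

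enp1 and enp2, assembly factors of the small ribosomal subunit, were among the lost falls. enp1 had 1771 and 1903 normalized counts in the deletion strain after H2O2 and 1759 and 2024 untreated, against 772 and 809 in WT after H2O2 and 2211 and 2383 untreated. The treated WT libraries were the low ones, and the deletion libraries overlapped between treatments. The difference was 1.50 ± 0.12 for enp1 (adjusted p = 7.06e-05) and 1.63 ± 0.15 for enp2. uro1 (1.59 ± 0.22) and uga1 (1.51 ± 0.23) completed the 4 largest lost falls. uga1, a GABA transaminase gene, is uncertain because its exons lie mostly opposite another gene.

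Among the damped falls, ceo5 had 758 and 878 normalized counts in the deletion strain after H2O2 and 1641 and 1547 untreated, against 265 and 280.2 in WT after H2O2 and 1979 and 2001 untreated (difference 1.90 ± 0.12). pho842, a phosphate transporter gene, fell strongly in both strains, to 172 and 207 normalized counts in the deletion strain and 38.2 and 54.8 in WT, with a difference of 1.71 ± 0.31. dri1 differed by 1.54 ± 0.16. ght1, a hexose transporter, had a difference of 1.57 ± 0.40 on low levels, shares sequence with its relatives and lost its call without replicate 2 of untreated WT or of the treated deletion strain or without either untreated deletion library (limma adjusted p 0.0505 to 0.0827).

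Falls that were larger in the deletion strain were few. Only gsf2, pfl3 and dao1 were enlarged falls. gsf2 and pfl3 encode flocculin-type cell surface proteins and were higher untreated in the deletion strain, 3.32-fold and 2.45-fold. dao1, a D-amino acid oxidase, was lower after H2O2, 174 and 149.6 normalized counts in the deletion strain against 329.5 and 380.3 in WT. Gained falls numbered 16, with a median response of -2.41 in the deletion strain and -0.07 in WT. pdc201, a pyruvate decarboxylase gene, had 203 and 183 normalized counts in the deletion strain after H2O2 and 961 and 1219 untreated, against 32.4 and 42.1 in WT after H2O2 and 40.3 and 40.1 untreated. Its 4 WT libraries were alike and far below the deletion libraries, and the difference was -2.36 ± 0.25. met17, which makes homocysteine, differed by -2.05 ± 0.42, with untreated WT libraries at 2284 and 1088 normalized counts.

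The response was then read by gene list. Over all genes tested, 12.0% were higher and 15.3% lower for the difference of responses, and the counts of each list stand against those shares.

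The core stress response list, genes under Sty1 and Atf1, had 22 members tested. The difference was lower for 19 and higher for 2, with a median of -1.73. By class 13 of the 22 were damped rises. The median response was 1.80 in the deletion strain and 4.06 in WT, and the median strain difference was 1.84 untreated and 0.04 after H2O2. Untreated, 20 members were higher in the deletion strain, against 22.8% of all genes, and after H2O2 9 were higher and 3 lower, against 26.5% and 22.4%. gpd1, the glycerol-3-phosphate dehydrogenase of glycerol synthesis, had 80858 and 79854 normalized counts in the deletion strain after H2O2 and 37638 and 37386 untreated, against 83256 and 102951 in WT after H2O2 and 11333 and 12715 untreated, a difference of -1.85 ± 0.18. The treated levels of the strains differed by less than the test could call (adjusted p = 0.210). gpx1, a peroxidase of the glutathione peroxidase family, ended at 41764 and 46421 normalized counts in the deletion strain and 40857 and 48858 in WT, with a difference of responses of -1.59 ± 0.22. ntp1, the neutral trehalase, differed by -1.81 ± 0.09. pyp2, the phosphatase that turns Sty1 off, differed by -1.25 ± 0.38, but its untreated deletion libraries lay apart (533 and 252 normalized counts). Its value ranged from -1.78 to -0.71 when 1 of them was left out, and it lost its call without either library of treated WT, replicate 2 of untreated WT or either library of the treated deletion strain (limma adjusted p 0.0794 to 0.111). The gene of the transcription factor, atf1, differed by -0.77 ± 0.10. The 2 higher members were ctt1 and ptc4, a protein phosphatase gene (0.75 ± 0.11).

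Trehalose and glycerol genes, which share members with that list, were lower for 9 of 13 and higher for 1, with a median of -0.91. The higher one was dak2. The list also counts gpd3, a glyceraldehyde-3-phosphate dehydrogenase gene that is in the glycolysis list too. gld1, the glycerol dehydrogenase, was damped at the treated level, with 58.7 and 60.3 normalized counts in the deletion strain against 279 and 133 in WT after H2O2 (-1.65 ± 0.45), and lost its call without replicate 2 of untreated WT, either treated deletion library or replicate 1 of the untreated deletion strain (limma adjusted p 0.0506 to 0.0861).

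**Figure D4:**
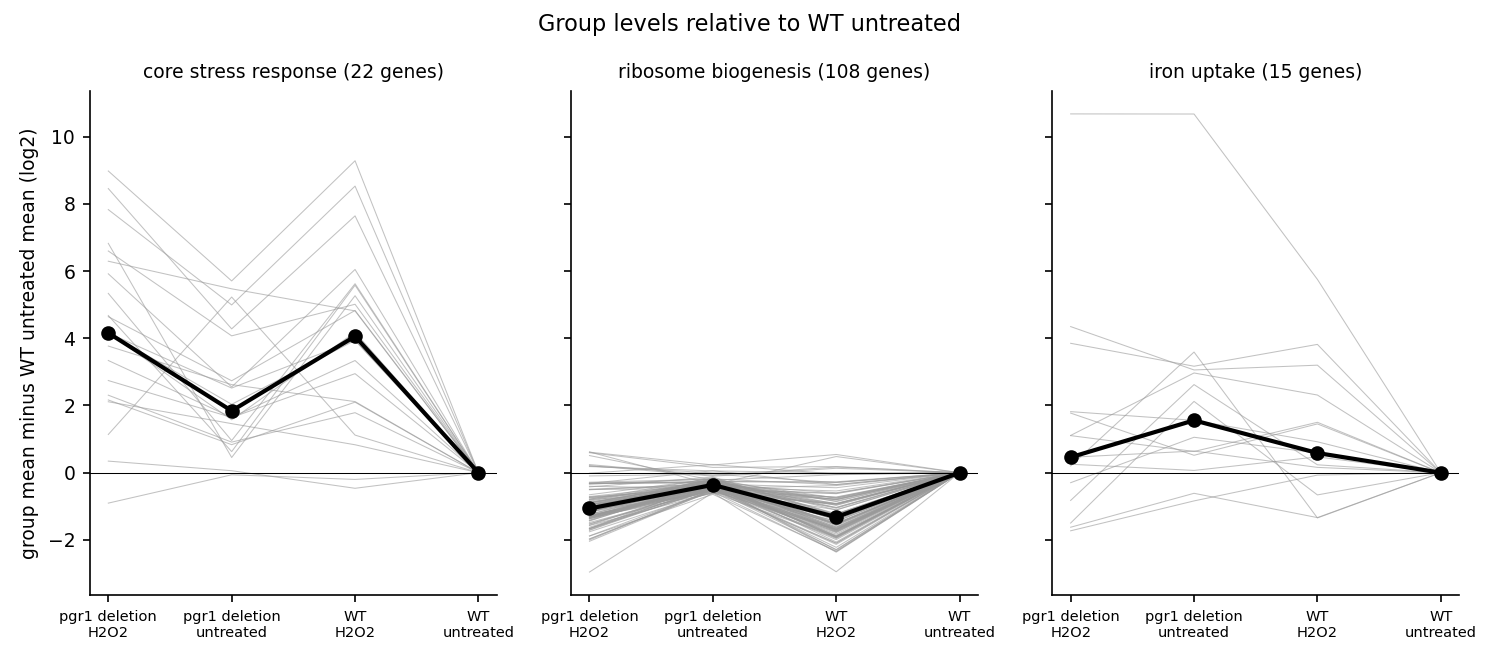
Group means relative to the WT untreated mean (log2) for the members of 3 gene lists, with 1 grey line per gene and the list median in black, from left to right pgr1 deletion after H2O2 and untreated, then WT after H2O2 and untreated. The medians of the core stress list are 4.16, 1.84, 4.06 and 0, those of the ribosome biogenesis list -1.06, -0.36, -1.32 and 0, and those of the iron uptake list 0.46, 1.56, 0.59 and 0.

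The Pap1 regulon list had 15 members tested, all higher in the deletion strain both untreated and after H2O2 (22.8% and 26.5% of all genes), with median strain differences of 2.22 untreated and 1.98 after H2O2. The difference of responses was lower for 8 and higher for 3, with a median of -0.51. obr1, a flavodoxin-like Pap1 target, had 116184 and 121971 normalized counts in the deletion strain after H2O2 and 59870.5 and 67073 untreated, against 20002 and 20901 in WT after H2O2 and 6922 and 6785 untreated. The deletion libraries were above all WT libraries, and the difference of responses was -0.67 ± 0.14 although the gain was 55606 normalized counts in the deletion strain and 13598 in WT. caf5, an efflux transporter, differed by -1.08 ± 0.16. tpx1, the peroxiredoxin that relays the peroxide signal, rose in both strains, with 108934 and 111081 normalized counts in the deletion strain after H2O2 and 32099 and 28305 untreated, against 29943 and 30566 in WT after H2O2 and 7069 and 6919 untreated. The untreated deletion and treated WT libraries overlapped and the other groups stood apart, and the difference of -0.25 ± 0.13 did not pass the test (adjusted p = 0.216), while with quantile normalization it was -0.51 and did (limma adjusted p = 0.0144). trx1 (0.19 ± 0.20, adjusted p = 0.547) and sod1 (0.31 ± 0.21, adjusted p = 0.319) did not pass it.

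The thioredoxin list was lower for 2 (srx1 and pmp20, a peroxiredoxin, -0.97 ± 0.18) and higher for 2 of 10 (trr1 and trx2, the mitochondrial thioredoxin, 0.59 ± 0.10). The glutathione list was lower for 8 and higher for 2 of 20, with a median of -0.24. Its lower members included grx1, a glutaredoxin (-0.79 ± 0.23), and its higher ones were gst4 and the phytochelatin synthase pcs2 (0.53 ± 0.13). gcs1, the first enzyme of glutathione synthesis, had a difference of -0.04 ± 0.09 (adjusted p = 0.785). Without either 1 of the libraries of the treated deletion strain, 5 members were lower. grx1 lost its call without replicate 2 of treated WT, replicate 1 of untreated WT, either treated deletion library or replicate 2 of the untreated deletion strain (limma adjusted p 0.0740 to 0.110). pcs2 lost it without replicate 1 of either deletion group (0.0678 and 0.0574). Genes of superoxide and peroxide detoxification were lower for 2 and higher for 2 of 8, the higher ones ctt1 and ccs1, the copper chaperone of superoxide dismutase (0.48 ± 0.10), which lost its call without replicate 2 of the treated deletion strain (limma adjusted p = 0.0515). sod2 did not pass the test (-0.13 ± 0.09).

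Genes of the pentose phosphate pathway and NADPH supply were lower for 3 and higher for 2 of 11. The lower members were zwf1, gcd1 (-0.90 ± 0.24) and gdh1 (-0.99 ± 0.13), a glutamate dehydrogenase gene, so the list mixes functions. gcd1 kept its call in 12 of the 18 alternatives. zwf1, glucose-6-phosphate dehydrogenase, the entry to the pentose phosphate pathway, was lower by this measure (-0.67 ± 0.14), while its level after H2O2 was 59891 and 64857 normalized counts in the deletion strain, against 28717 and 33265 in WT. The treated deletion libraries were above every other one. gnd1, the next dehydrogenase of the pathway, did not pass the test (-0.12 ± 0.13, adjusted p = 0.554). tal1, transaldolase, was higher (0.43 ± 0.11), as was pos5. tal1 lost its call without replicate 1 of treated WT, replicate 2 of untreated WT, either treated deletion library or replicate 2 of the untreated deletion strain (limma adjusted p 0.0564 to 0.0970).

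Cytosolic chaperones were lower for 9 and higher for 1 of 16, with a median of -0.40. ssa1, an Hsp70, had 69884 and 61287 normalized counts in the deletion strain after H2O2 and 10707 and 8923 untreated, against 77622 and 66197 in WT after H2O2 and 2028 and 1752 untreated. The treated libraries of the strains overlapped and the untreated ones did not, and the difference was -2.51 ± 0.18 (adjusted p = 3.98e-05). hsp104, a disaggregase, differed by -2.05 ± 0.26. ssz1, a ribosome-associated Hsp70, was the higher member (0.51 ± 0.10). Without replicate 2 of the treated deletion strain, 5 cytosolic chaperones were lower. Mitochondrial chaperones and proteases were lower for 5 and higher for 1 of 15, and 2 were lower without that library. The matrix disaggregase hsp78 was the lowest (-1.36 ± 0.15). That list mixes functions, since it also counts ssp1, a protein kinase gene, pim1, a Ran exchange factor gene, and tcb1, a tricalbin gene.

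Ribosome biogenesis was the list with the most genes on the positive side: 70 of 108 higher and 0 lower, with a median of 0.55. The median response was -0.75 in the deletion strain and -1.32 in WT. The deletion strain was lower untreated for 82 of the 108 (median -0.36, against 15.8% of all genes). After H2O2 it was higher for 54 and lower for 10, against 26.5% and 22.4% of all genes. By class, 11 were damped falls and 3 lost ones. The count of lower members was 0 also at an unadjusted limma p below 0.05 and by edgeR's quasi-likelihood test and DESeq2, and imp2 and rrp2 had the most negative values (-0.21 and -0.16). The list was taken partly by name pattern and includes exosome genes and others of mixed function. Both imp2, a contractile ring protein gene, and rrp2, a DNA translocase gene, were taken in by their names. The cytosolic ribosomal proteins themselves showed 2 higher and 1 lower of 138, with a median of 0.05. The higher ones were rps1401 (0.76 ± 0.14), whose exons lie mostly opposite another gene, and rpl3002 (0.53 ± 0.16), and the lower one was rpp40 (-0.43 ± 0.10), an RNase P subunit taken in by its name. rpl3002 lost its call in 6 of the 8 fits with 1 library left out (limma adjusted p 0.0644 to 0.130), keeping it without replicate 1 of treated WT or replicate 2 of the untreated deletion strain, and rpp40 lost it without replicate 2 of the treated deletion strain (0.0706).

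**Figure D5:**
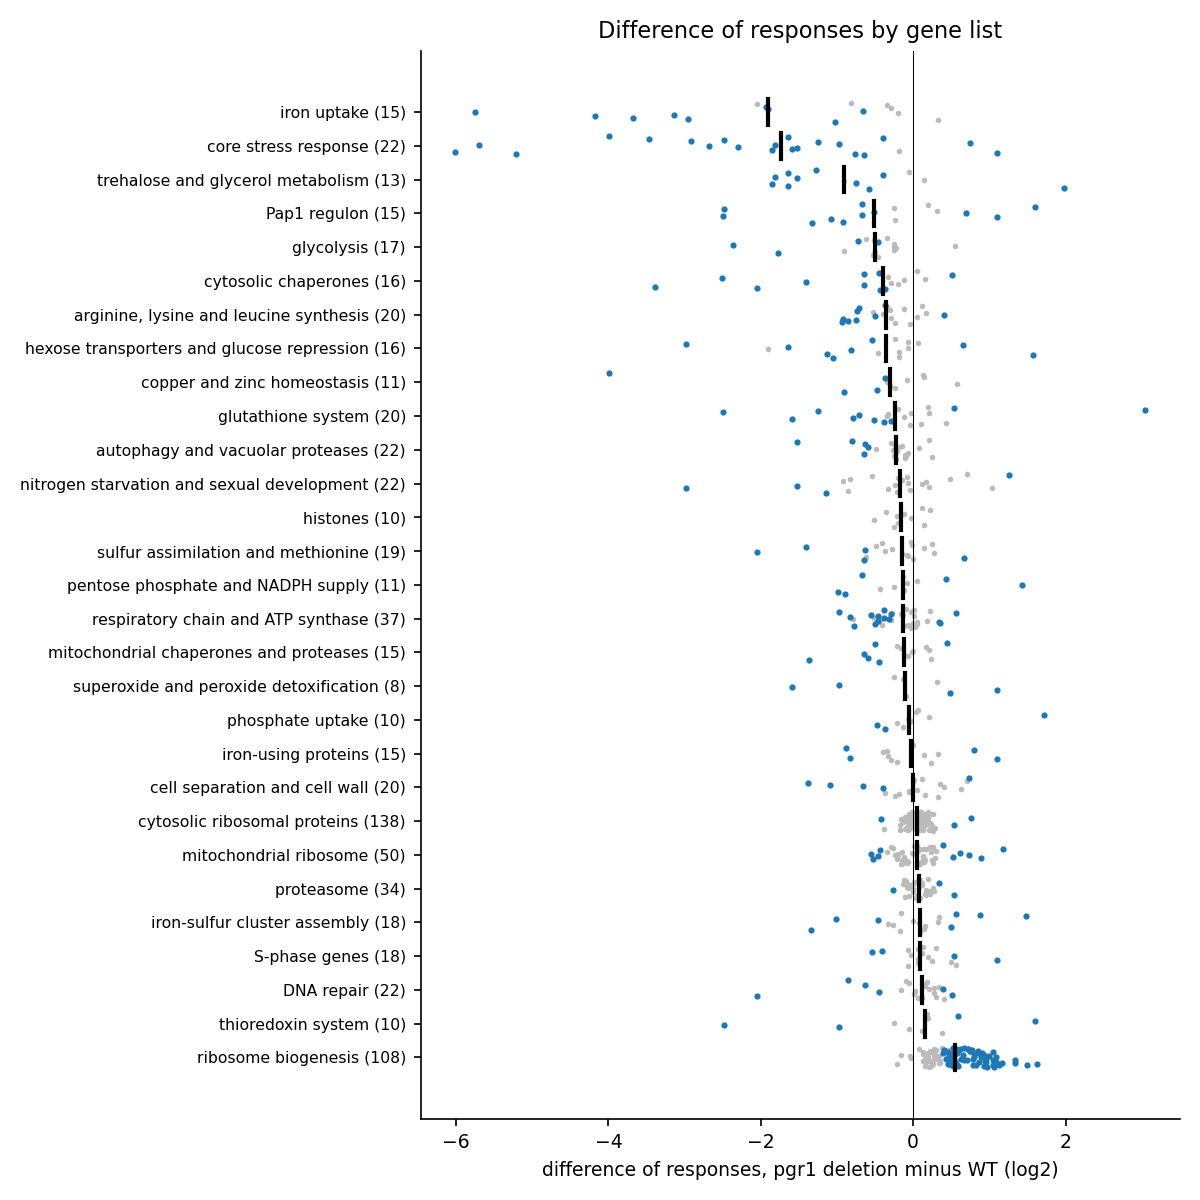
Difference of responses, pgr1 deletion minus WT (log2), for every tested member of 29 gene lists, ordered by list median (black bar), with called genes in blue, the others in grey and the number of members tested beside each name. Iron uptake and core stress genes have the lowest medians, -1.91 and -1.73, and ribosome biogenesis the highest, 0.55.

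Iron uptake genes had the lowest median, -1.91, with 9 of 15 lower and 0 higher. The count of higher members was 0 also at an unadjusted limma p below 0.05 and by edgeR and DESeq2. The median response was -0.18 in the deletion strain and 0.59 in WT, and 12 of the 15 were higher untreated in the deletion strain, against 22.8% of all genes. frp1, a ferric reductase, had 2640.3 and 2797 normalized counts in the deletion strain after H2O2 and 8786 and 11053 untreated, against 4335 and 9018 in WT after H2O2 and 890.4 and 1779 untreated. The untreated WT libraries were the lowest, and the 2 treated WT libraries lay apart, 1 of them among the untreated deletion libraries. frp1 fell in the deletion strain and rose in WT (difference -4.17 ± 0.51, adjusted p = 6.28e-04).

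fip1, the iron permease, had 853 and 1005 normalized counts in the deletion strain after H2O2 and 9033 and 11306 untreated, against 1115 and 3347 in WT after H2O2 and 1032 and 2608 untreated. The untreated deletion libraries were the highest, and the WT libraries overlapped between treatments. Replicate 2 of WT was higher than replicate 1 in both treatments, by more than 2-fold. The difference was -3.68 ± 0.72 (adjusted p = 0.00597), and with the alternatives, each library left out included, it ranged from -4.47 to -2.89. fio1, the multicopper oxidase that works with Fip1, differed by -2.96 ± 0.60 (range -3.60 to -2.32). str1, a siderophore-iron transporter, differed by -1.94 ± 0.35 (range -2.41 to -1.47), and its WT response did not pass the test (adjusted p = 0.0595). All 3 kept their calls under each of the 18 alternatives, the 4 that leave out 1 WT library among them.

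Iron-using proteins showed 2 higher and 2 lower of 15, with 5 lower without replicate 1 of untreated WT and 1 higher without replicate 2 of the treated or replicate 1 of the untreated deletion strain. With all 8 libraries, the higher members were ctt1 and pcl1 (0.80) and the lower ones cyc1 and php4 (-0.88). pcl1 encodes a vacuolar iron transporter and php4 a regulator of iron-using genes, so the list mixes functions. For iron-sulfur cluster assembly the counts were 4 higher and 3 lower of 18. The 18 include asf1, a histone chaperone gene matched by its other name cia1. atm1, the mitochondrial exporter of that pathway, rose less in the deletion strain (-1.34 ± 0.15), as did isu1, the scaffold (-1.01 ± 0.14). nar1, of the cytosolic assembly machinery, fell less (1.49 ± 0.29). The respiratory chain was lower for 11 and higher for 3 of 37, with a median of -0.13. Its levels were lower in the deletion strain for 36 of 37 untreated and 35 of 37 after H2O2, against 15.8% and 22.4% of all genes. cyc1, cytochrome c, had 1389 and 1309 normalized counts in the deletion strain after H2O2 and 2377 and 2144 untreated, against 7157 and 5685 in WT after H2O2 and 6429 and 5606 untreated. All deletion libraries were below all WT libraries, and the difference of responses was -0.83 ± 0.16. With quantile normalization 5 members of this list were higher and 3 lower. The lower count was 2 and 4 without replicate 2 and replicate 1 of the treated deletion strain, 7 and 5 without replicate 1 and replicate 2 of the untreated deletion strain, and 7 without replicate 1 of untreated WT.

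Arginine, lysine and leucine synthesis was lower for 8 and higher for 1 of 20, with a median of -0.36. The untreated levels of arg12 did not differ beyond the test (0.11 ± 0.11), and after H2O2 it had 7581 and 6949 normalized counts in the deletion strain against 11949 and 13798 in WT, a difference of responses of -0.93 ± 0.16. The treated WT libraries were the highest. arg5 followed the same order (-0.93 ± 0.18). With single libraries left out, 4 were lower without either treated deletion library, replicate 1 of the untreated deletion strain or replicate 2 of treated WT, 5 without replicate 2 of the untreated deletion strain or of untreated WT, and 13 without replicate 1 of untreated WT. gdh1, the NADP-dependent glutamate dehydrogenase, is a member of the NADPH supply list and not of this one. Its difference was -0.99 ± 0.13, with 6602 and 6735 normalized counts in the deletion strain against 11827 and 14484 in WT after H2O2.

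The remaining lists had medians between -0.50 and 0.12. The proteasome rose in both strains, for 34 of 34 genes in the deletion strain and 33 of 34 in WT, against 35.7% and 37.7% of all genes. Its difference was higher for 2 and lower for 1, and 0 to 3 were higher under the alternatives. The lower one, rpn11, a deubiquitinating subunit (-0.27 ± 0.09), kept its call in 5 of the 18 alternatives, and lost it with each library left out in turn and by edgeR and DESeq2. Histone genes gave 0 calls of 10 by limma, edgeR and DESeq2, and 0 at an unadjusted limma p below 0.05. At an unadjusted DESeq2 p below 0.05, 1 histone gene was lower, and by limma 1 was called lower without replicate 2 of untreated WT. The mitochondrial ribosome gave 6 higher and 4 lower of 50, S-phase genes 2 and 2 of 18, and DNA repair 2 and 4 of 22. Cell separation and cell wall genes gave 1 higher and 4 lower of 20 and the hexose transporters with their repression genes 2 and 6 of 16. The higher member of the cell separation list was sim4 (0.73), which encodes a kinetochore protein and not a cell wall one. Glycolysis gave 0 higher and 4 lower of 17, with a negative value for 16. DESeq2 gave 9 lower, while 2 were lower without replicate 2 of treated WT, either treated deletion library or replicate 1 of the untreated deletion strain. Sulfur assimilation and methionine synthesis gave 1 higher and 4 lower of 19, phosphate uptake 1 and 2 of 10, copper and zinc homeostasis 0 and 4 of 11 and autophagy with vacuolar proteases 0 and 5 of 22. For the higher members of glycolysis and of copper and zinc homeostasis, counted as 0, an unadjusted limma p below 0.05 gave 1 each, edgeR 0 and DESeq2 1, and for autophagy all 3 gave 0. As markers of another cell state, the nitrogen starvation and sexual development genes gave 1 higher (ste11, 1.25 ± 0.36, on a level of at most 236 normalized counts) and 3 lower of 22, near the shares over all genes. ste11 lost its call without either library of untreated WT, either treated deletion library or replicate 2 of the untreated deletion strain (limma adjusted p 0.0653 to 0.113), and 8 genes of the list were lower without replicate 1 of treated WT. Several other counts in this paragraph moved by more than 1.5 times with 1 library left out. Without replicate 2 of the treated deletion strain the lower genes were 3 of the hexose list, 2 of copper and zinc, 2 of the mitochondrial ribosome and 2 of cell separation, and without replicate 1 of treated WT 8 autophagy genes were lower. Over the 18 alternatives the higher and lower counts ran from 3 to 8 and from 1 to 4 for the mitochondrial ribosome, from 2 to 5 and from 0 to 2 for S-phase genes, from 0 to 3 and from 3 to 4 for DNA repair, and from 0 to 2 and from 4 to 8 for sulfur assimilation and methionine.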

How the data were processed

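Per the labels' protocols, hot phenol extraction was followed by poly(A) selection and a TruSeq stranded kit. The submitters' processing notes name the tools Salmon, DESeq2, Trimmomatic and FastQC and the build ASM294v2. The authors deposited a signal per gene, counts divided by a size factor of the library, from which whole reads were recovered for 99.98% to 100% of genes (tolerance 0.05 reads). Of 5165 gene IDs 5129 matched RefSeq (ASM294v3), used for names and for marks of overlap. A line that names no gene was left out.

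limma 3.58.1 (R 4.3.3, trended prior, 4 residual degrees of freedom) was fitted to log2(value + 1) of all 8 libraries, with Benjamini-Hochberg adjustment over 5028 genes, so folds understate low genes. Alternatives were edgeR 4.0.16 and DESeq2 1.42.0 on recovered reads, other scalings, filters and pseudocounts, a replicate block and each library left out. The fit was tested on simulated data.

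Genes named were the 4 largest differences per class and direction with a symbol and a mean of at least 50, the 2 highest and 2 lowest called per list, and a set of redox, stress and iron genes. imp2, rrp2, rpa49, cdh1, bsu1, mde7 and mug95 were named after their values were seen. ssp1, pim1, tcb1, asf1 and gpd3 were named only to say what their lists hold. The genes, lists (29, of whose entries 13 did not match) and rules were chosen with earlier results of these data known.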

Additional observations from a re-analysis of the deposited data

Results flagged for a closer look

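The responses of the strains differed by a test of the difference itself for 1372 genes. In 8 named genes both responses passed the test with opposite signs (limma, Benjamini-Hochberg adjustment). The difference of responses was 1.97 for dak2, 2.11 for gta3, 1.43 for wtf5, 1.43 for pos5 and 1.18 for mrpl7, which rose in the deletion strain and fell in WT. It was -1.70 for ecl2, -4.17 for frp1 and -1.41 for pof1, which fell in the deletion strain and rose in WT. Both libraries of each group lay on the same side for these genes. gta3 and wtf5 are uncertain for the reasons given with them.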

How the results depend on the processing

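No called difference of a named gene reversed its direction under the alternatives run. Calls were also lost without leaving out a library, by 17 named genes in at least 1 of the other 10 alternatives. Over all 18 alternatives pyp2 kept its call in 11, grx1 in 12, gld1 in 13 and rpl3002 in 11. For ght1 it was 12 of the 17 that gave it an adjusted p. Leaving out 1 library at a time gave 315 to 604 genes higher and 461 to 796 lower, with the fewest without replicate 2 of the treated deletion strain (315 and 461) and 489 lower without its replicate 1. edgeR gave 612 and 773, DESeq2 521 and 691, quantile normalization 651 and 632, the one setting with more genes higher than lower, and a constant prior 544 and 690. The labels do not say that a replicate number marks a shared culture or day, so the numbers were not taken to pair the samples. The deviations of same-numbered libraries did correlate, at -0.20 to 0.45 between groups and above 0.1 for 5 of 6 pairs of groups. Whether same-numbered libraries share a culture or day was not tested. The fit with the replicate block gave 750 higher and 934 lower, with 12 glycolysis, 8 sulfur, 6 nitrogen starvation and sexual development, 4 iron-using and 1 histone gene lower.

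The class counts depend on the ratio that divides them. At 0.1, 22 responses were lost, 27 enlarged and 19 gained. At 0.5, 87 were damped, 165 lost, 8 enlarged, 59 gained and 20 reversed. With shares of 0.67 and 0.33, 66 differences were set at both levels. With single libraries left out, damped counts ran from 164 to 198, lost from 49 to 69, enlarged from 12 to 23, gained from 31 to 44 and reversed from 31 to 62. The cause was not tested. A search of promoters for motifs was not run. With 2 libraries per group, the depth limits genes of few reads, such as shu1.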

Other observations

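Genes with a difference of at least 2-fold lay beside one another on the chromosomes in part. Of the 117 higher genes, 23 (19.7%) had an adjacent gene in the same set, while 4.53% of all tested genes lay beside the set. Of the 222 lower genes, 42 (18.9%) did, with 8.15% of tested genes beside the set. Pairs included ctt1 with cox14 (1.11 and 1.19), gst4 with wtf11 (3.05 and 1.01), ime4 with ppk8 (2.02 and 1.18) and the iron genes fip1 and fio1 (-3.68 and -2.96). Gene order was taken from RefSeq (ASM294v3). The counts are a description, and the part that reads shared by neighbours may have in them was not tested.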
